A study of Drosophila melanogaster with 84 samples.

Results

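The serpins are a family of proteins that block serine proteases, and the Drosophila genome names most of its members Spn followed by the chromosome band. The set described here holds the rows of the expression table whose symbol is Spn followed directly by a digit, together with nec (necrotic), the serpin named for its mutant phenotype. The rule uses names alone and no measured value. It found 28 genes among the 17869 FlyBase genes and 23932 rows of the table, and 13 of the 28 had a median above 5 TPM (transcript abundance scaled to transcript length and library total) in at least 1 of the 4 groups of flies.

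A serpin exposes a loop that a protease takes for a substrate. Cutting the loop traps the protease in a dead complex, so each serpin molecule is spent in a single reaction. The fly fat body, which combines the roles of liver and adipose tissue, secretes many serpins into the hemolymph. There they hold in check the chains of clip-domain proteases that process Spätzle, the ligand of the Toll receptor, and the chains that activate prophenoloxidase, the precursor of the enzyme that makes melanin at wounds and around parasites. Other serpins of the fly act inside the secretory pathway or belong to the seminal fluid.

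The libraries were made to follow the daily rhythm of the fat body transcriptome at different temperatures and diets and in a clock mutant. Each library held poly(A) RNA of the abdominal fat tissue of 10 young mated females, dissected on day 5 at the stated temperature and diet in a 12 h light and 12 h dark cycle, and time is given as ZT, in hours after lights on. A total of 84 libraries fell into 4 groups. Wild-type flies (w1118, Iso31) that ate sucrose-yeast food at 15% (15% SY, labelled high calorie) were kept at 18°C (24 libraries) or at 25°C (24 libraries), and wild-type flies on 5% SY (labelled low calorie) were kept at 25°C (24 libraries), all at 12 time points from ZT2 to ZT24 with 2 replicates each. Clk-Jrk mutants, which carry a dominant-negative allele of the clock gene Clk in the same w1118 background, were kept on 15% SY at 25°C and sampled at 6 time points 4 h apart, with 2 replicates each (12 libraries). They were compared with the 12 wild-type libraries of the same time points, diet and temperature. Flies were entrained in 2 incubators with inverted light cycles so that sampling fell in working hours. Which incubator a library came from is not given in the sources used here, so an incubator difference and a light to dark difference cannot be told apart. Nothing in the labels ties the replicates to separate cohorts of flies, so a p-value measures only the spread between these libraries, which may be technical.

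The tissue label held up against most of its markers. Of the 8 fat body markers found in the table, Lsp2 was low in wild type, with medians from 3.3 TPM (5% SY) to 23.6 TPM (25°C, 15% SY), against 627 TPM in Clk-Jrk. The yolk protein genes Yp1, Yp2 and Yp3 had medians from 16026 to 53000 TPM, and the 4 genes of the male accessory gland list found in the table had a median of 0 TPM in each group. Oenocyte transcripts were abundant: Cyp4g1 had medians from 26715 TPM (25°C, 15% SY) to 30997 TPM (18°C), and FASN2 from 341 TPM (Clk-Jrk) to 439 TPM (18°C). Ovary, midgut and muscle transcripts were also present, and their summed levels were uneven. The 8 ovary markers summed to a median of 149 TPM at 18°C and 883 TPM on the same diet at 25°C. The clock genes tim and vri, which Clk activates, checked the genotype label: tim had a median of 3.47 TPM in Clk-Jrk against 57.8 TPM in wild type on the same diet and temperature, and vri 3.46 TPM against 24.2 TPM. In bulk tissue, fewer cells of a type and less RNA per cell cannot be told apart. TPM keeps no read counts, so depth is unknown and all errors given here come from the spread of libraries. One wild-type library (25°C, 15% SY, replicate 1 at ZT4) stood apart, with the lowest correlation with the median of its group (0.904, across genes, which are not independent replicates). Results that change without it are given beside their values. The 5% SY library of replicate 1 at ZT2 held the lowest 5% SY value of each of the 13 serpins. Its 20 most abundant rows made up 50.8% of its TPM, against 38.7% or less in each other library. No fit left out this library alone.

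Spn43Ab was the most abundant serpin in each group. On 15% SY its median stood at 599 TPM in the cold and at 556 TPM at 25°C, with 702 TPM on 5% SY and 566 TPM in Clk-Jrk, which made it 38.2%, 45.4%, 48.1% and 39.96% of all serpin transcripts in the median library. TPM is scaled to transcript length, so these levels can be compared between genes. Next came nec, the inhibitor that restrains the protease Persephone upstream of Toll, with medians from 172 TPM (25°C) to 224 TPM (18°C), and Spn88Eb with 111 TPM (25°C) to 203 TPM (18°C). Spn43Ab was above nec in 24 of 24 libraries of each wild-type group and in 12 of 12 of Clk-Jrk. The order of nec and Spn88Eb was less firm, since nec was the higher in 23 of 24 libraries at 25°C but in only 13 of 24 at 18°C.

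A middle layer of 5 genes had medians between 34 and 115 TPM. Spn42Da, whose alternative last exons give different reactive loops and which inhibits the proprotein convertase furin, led this layer in each group with 85.9 TPM (25°C) to 115 TPM (Clk-Jrk). Spn42Dd, a regulator of the Toll pathway, followed with 78.5 TPM to 101 TPM in the same 2 groups. Spn27A, which controls Easter in the embryo and prophenoloxidase activation in the hemolymph, had medians from 63.4 TPM (25°C) to 82.5 TPM (18°C). Spn77Ba, which limits melanization in the tracheae, ranged from 46.2 to 77.6 TPM, and Spn28Dc, which limits melanization after wounding, from 34.1 to 47.8 TPM. Neighbours within this layer traded places from library to library: at 18°C, Spn42Dd was above Spn27A in 15 of 24 libraries and Spn27A above Spn77Ba in 16 of 24.

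The remaining 5 of the 13 were lower. Spn88Ea, a negative regulator of Toll that is also needed for wing expansion, had medians from 21.9 TPM (Clk-Jrk) to 38.6 TPM (18°C), Spn47C from 12.0 to 22.3 TPM, Spn55B from 11.2 to 17.7 TPM and Spn43Ad from 11.7 to 19.1 TPM. Spn31A was above 5 TPM in median only at 18°C (7.18 TPM) and had 3.41 TPM at 25°C, 3.92 TPM on 5% SY and 2.96 TPM in Clk-Jrk. The 28 genes together summed to a median of 1522 TPM at 18°C, 1270 TPM at 25°C, 1479 TPM on 5% SY and 1352 TPM in Clk-Jrk, with ranges that overlapped between all groups (981 to 1785 TPM at 18°C and 803 to 1598 TPM at 25°C).

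**Figure D1:**
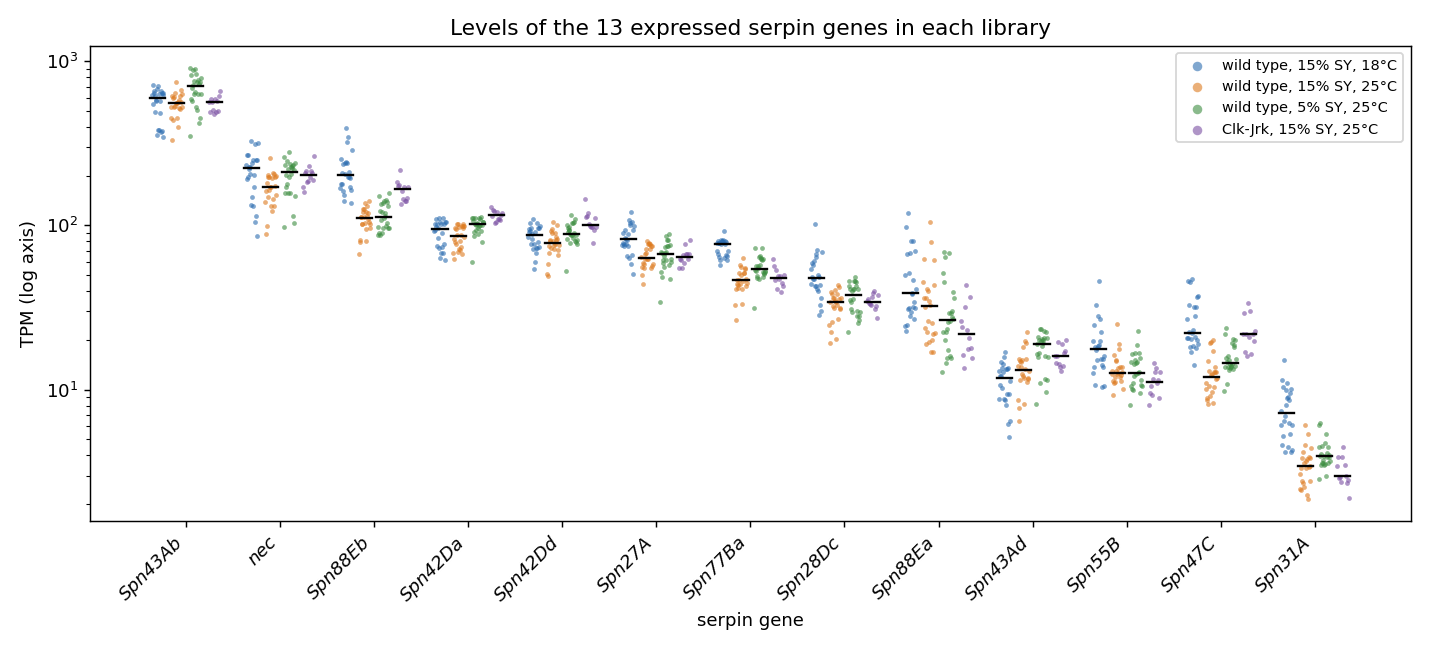
Level of the 13 serpin genes with a median above 5 TPM in any group, in TPM on a log axis. Each point is 1 library, the colours are the 4 groups and the black bars are group medians. Spn43Ab stood above all others, from a median of 556 TPM at 25°C to 702 TPM on 5% SY, and Spn88Ea spread widely within each group (22.7 to 118.5 TPM at 18°C).

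Several serpin genes lie in clusters, whose members had unlike levels. All 28 genes were found in the Ensembl annotation of the BDGP6 assembly, with 8 on chromosome arm 2L, 12 on 2R, 4 on 3L and 4 on 3R. The cluster at band 42D holds 5 genes within 2R:6875906-6888262. Of these, Spn42Da and Spn42Dd were in the middle layer, while Spn42Dc between them had a median of 3.12 TPM over the 84 libraries, Spn42De 0.67 TPM and Spn42Db 0.13 TPM. The gene models of Spn42Dc and Spn42Dd share exon bases on the same strand, so reads there could belong to either gene. At band 43A, Spn43Ab (2R:7151662-7153642), Spn43Ad (2R:7153738-7155424) and nec (2R:7156477-7158241) lie side by side on the minus strand at unlike levels, and Spn43Aa at the other end of the cluster had a median of 0.125 TPM. Spn77Ba (3L:20317190-20320116) was the expressed gene of its cluster of 3, and Spn88Ea and Spn88Eb are neighbours on the minus strand of 3R (15203069 to 15208762). Exon bases are also shared between Spn42Da, Spn77Ba, Spn88Ea or Spn47C and a gene or transposon fragment on the opposite strand, and counting was without regard to strand, so their values may include reads of those partners.

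**Figure D2:**
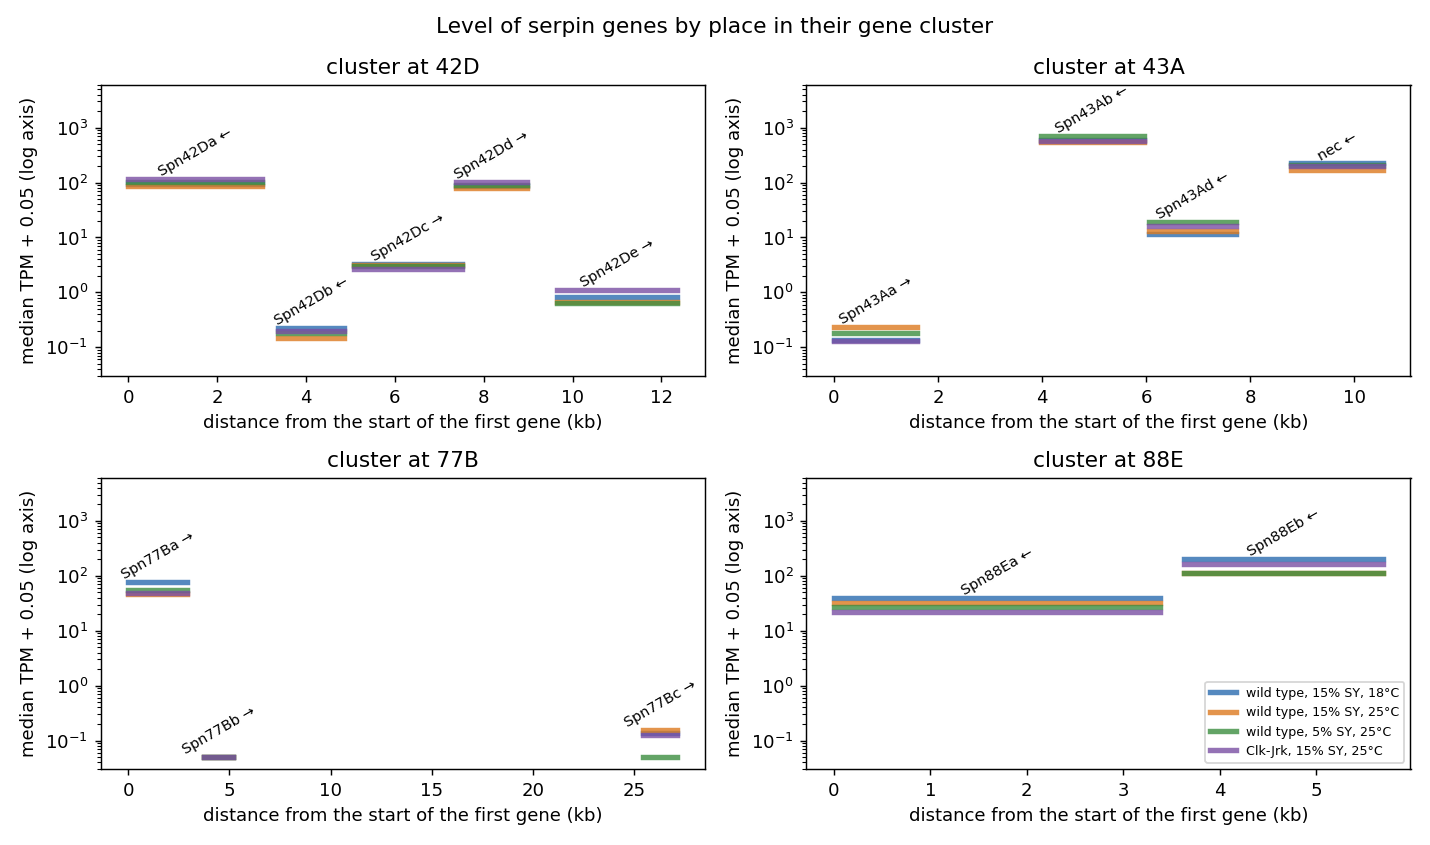
Median level of each serpin gene in 4 gene clusters, as TPM + 0.05 on a log axis, against distance in kb from the start of the first gene of the cluster. Each bar spans the gene, arrows give the strand and colours are the 4 groups. In the 42D cluster Spn42Da and Spn42Dd lay between 78 and 115 TPM while Spn42Db between them stayed under 1 TPM in each library, and in the 77B cluster Spn77Ba alone was above 1 TPM.

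The other 15 serpin genes were at or near 0. For 12 of them no library reached 1 TPM, and 9 had a median of 0 TPM over the 84 libraries (Spn28Da, Spn28Db, Spn28F, Spn38F, Spn53F, Spn75F, Spn77Bb, Spn85F and Spn100A). Spn42Dc was the exception among the low genes, above 1 TPM in 84 of 84 libraries with a highest value of 6.91 TPM. Spn42De exceeded 1 TPM in 15 libraries and peaked at 1.81 TPM. Spn43Aa passed 1 TPM in a single library (5% SY, replicate 1 at ZT22, 4.70 TPM). None of the 15 passed the filter of a median above 5 TPM, and no difference between groups was tested for them.

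In the fit of all libraries, without a term for replicate number, the serpins called by temperature were higher in the cold. Spn43Ad was called lower in other fits, given below. Between 18°C and 25°C, 7 of the 13 serpins tested were higher at 18°C and 0 were lower, by limma on log2(TPM + 1) within time points, with Benjamini-Hochberg adjustment over the 7157 features tested and a threshold of 0.05. Over all features 50.8% were called, 22.1% higher and 28.7% lower. Spn31A is among the 7, but it entered the test only through its level at 18°C and so had to differ. Of the other 12 serpins 6 were higher, and their median difference was 0.38 on the log2(TPM + 1) scale, against -0.06 over all features.

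The largest difference was that of Spn47C. Its level was 14.1 to 47.4 TPM with a median of 22.3 TPM at 18°C, and 8.14 to 19.95 TPM with a median of 12.0 TPM at 25°C. The ranges overlapped, but 18 of the 24 libraries at 18°C were above each library at 25°C. The difference was 1.00 on the log2(TPM + 1) scale (standard error 0.13, limma adjusted p = 5.45e-08), higher in 24 of 24 pairs matched by time point and replicate number. Replicate numbers were not taken to pair the samples in any test, so counts of such pairs, here and below, are a description only. Spn31A, given as a description only, had a median of 3.41 TPM at 25°C (2.15 to 6.09 TPM) and 7.18 TPM at 18°C (4.18 to 15.2 TPM).

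Spn88Eb and its neighbour Spn88Ea differed in how clearly they moved. Spn88Eb ranged from 136 to 393 TPM with a median of 203 TPM at 18°C and from 67.3 to 141 TPM with a median of 111 TPM at 25°C. Of the 24 cold libraries, 22 were above the highest library at 25°C, and the difference was 0.97 (standard error 0.09, limma adjusted p = 6.88e-11). For Spn88Ea the libraries ranged from 22.7 to 118.5 TPM at 18°C and from 16.9 to 104 TPM at 25°C, which left its difference of 0.40 (standard error 0.21) short of the threshold (limma adjusted p = 0.107).

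Of the 6 serpins with a known role in Toll signalling or melanization, 3 were higher at 18°C and 0 were lower. Spn77Ba ranged from 57.8 to 92.1 TPM (median 77.6 TPM) at 18°C and from 26.7 to 62.9 TPM (median 46.2 TPM) at 25°C. All but 3 of the cold libraries were above each library at 25°C, with a difference of 0.68 (standard error 0.06, limma adjusted p = 1.82e-11). Spn28Dc had a difference of 0.59 (standard error 0.11, limma adjusted p = 2.22e-05), with a median of 47.8 TPM at 18°C (28.4 to 102 TPM) and 34.3 TPM at 25°C (19.3 to 43.6 TPM). Spn27A differed by 0.35 (standard error 0.07, limma adjusted p = 0.00021), with a median of 82.5 TPM at 18°C (50.8 to 121 TPM) and 63.4 TPM at 25°C (44.0 to 80.5 TPM). For Spn27A the call rested on the replicate 2 libraries, since without them the difference was 0.25 and the limma adjusted p was 0.0647. The other 3, nec, Spn88Ea and Spn42Dd, had differences of 0.29, 0.40 and 0.12 and did not pass. For nec the adjusted p was 0.0736, with 86.6 to 329 TPM at 18°C and 89.3 to 258 TPM at 25°C.

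Outside these roles, Spn55B was higher at 18°C, with a median of 17.7 TPM (10.4 to 45.7 TPM) against 12.7 TPM (9.28 to 25.3 TPM), a difference of 0.40 (standard error 0.10, limma adjusted p = 0.00159). The abundant Spn43Ab did not pass, with a difference of -0.01 and a 95% interval from -0.20 to 0.19. Spn42Da also did not pass, with a difference of 0.07 and a 95% interval from -0.08 to 0.23. Spn43Ad lay on the other side, with a difference of -0.24 and lower at 18°C in 20 of 24 pairs of libraries, and it missed the threshold (limma adjusted p = 0.0841). Without the library that stood apart it passed (limma adjusted p = 0.0347, difference -0.29).

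**Figure D3:**
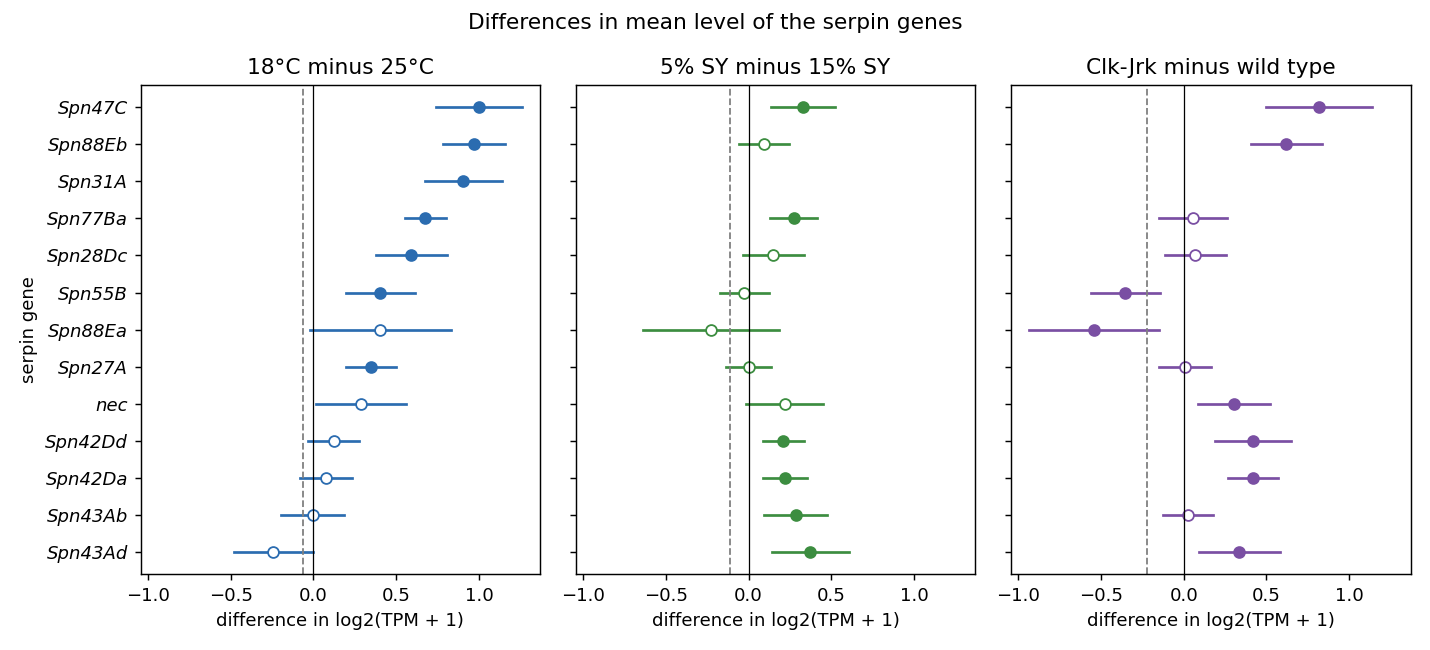
Difference in mean level of the serpin genes for temperature, diet and genotype, in log2(TPM + 1), with 95% intervals from limma. Filled points passed an adjusted p of 0.05, open points did not, and the dashed line is the median of all features tested. Spn31A was tested for temperature only, through its level at 18°C. Filled points lie to the right of 0 in all panels except Spn55B (-0.35) and Spn88Ea (-0.54) in Clk-Jrk.

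The proteases and enzymes that serpins restrain were followed as a list of 17 genes, 14 of which were tested. At 18°C, 8 of the 14 were higher than at 25°C and 0 were lower, with a median difference of 0.39. They were the prophenoloxidase genes PPO2 (0.91, standard error 0.15, limma adjusted p = 7.2e-06) and PPO1 (0.78), the proteases modSP (0.57), Sp7 (0.55), grass (0.48), Hayan (0.46) and psh (0.32), and SPE (0.45), the enzyme that cuts Spätzle. Toll itself (Tl), its ligand gene spz, ea, MP1, Fur1 and Fur2 had differences from -0.21 to 0.11 and did not pass. Among 9 Toll effector genes, BomS2 (1.08), BomS3 (0.78) and BomS1 (0.68) were higher and Mtk (-1.64) was lower. Under the median of ratios BomS1 missed the threshold (limma adjusted p = 0.0538) and Fur2 was lower (-0.20, limma adjusted p = 0.0174). Without the replicate 1 libraries 5 partners (PPO2, modSP, Sp7, grass and Hayan) and 2 effectors (BomS2 and BomS3) were higher, and 0 of either list were lower.

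Hemocytes, the blood cells that also make some of these proteins, moved with temperature as well. Of the 8 hemocyte markers, 7 were tested and 7 were higher at 18°C, among them eater (1.16) and Hml (0.72), and PPO1 and PPO2 stand in both lists. The summed level of the 8 markers was 170 to 432 TPM at 18°C and 90.7 to 250 TPM at 25°C, and lz, the marker of the cells that store prophenoloxidase, was near 0 (median 0.21 and 0.12 TPM). The 2 sets of replicates differed here. In the replicate 1 libraries alone, Hml (1.29), NimC1 (0.78) and the other 5 markers were higher, and Spn47C stood at 1.16, Spn88Eb at 1.12 and Spn77Ba at 0.76. In that set 5 of the 12 serpins other than Spn31A were higher, where 19% of all features were. In the replicate 2 libraries alone, eater (0.66), PPO2 (0.39) and Sr-CI (0.38) were higher, and PPO1 (0.19), Hml (0.15), Pxn (0.03) and NimC1 (-0.02) did not pass. There, 9 of the 12 serpins other than Spn31A were higher, where 17.2% of all features were, with Spn47C at 0.85, Spn88Eb at 0.83 and Spn77Ba at 0.59, and nec (0.39), Spn42Dd (0.26) and Spn42Da (0.13) also passed. The 4 muscle markers tested were higher at 18°C and the 6 ovary markers tested lower, but in the replicate 2 libraries alone 1 of 4 muscle markers was higher and 0 of 5 ovary markers were lower. Of 8 fat body markers tested, 1 was higher at 18°C and 5 were lower, with a median difference of -0.69, and in the replicate 2 libraries alone 0 were higher and 4 lower. The part of fat body cells, hemocytes, muscle and ovary in the serpin differences was not tested.

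The serpins called by diet were all higher on the leaner food. On 5% SY, 6 of the 12 serpins tested were higher than on 15% SY and 0 were lower, against 27.3% of the 7000 features tested called, 6.13% higher and 21.2% lower. The median difference was 0.21 over the 12 serpins and -0.11 over all features. Rescaling the libraries by the median of ratios moved the median of all features to 0.00. The share of higher calls among all calls went from 22.4% to 40.3%. Under that scaling 6 of the 12 serpins were again higher and 0 lower, where 13.9% of all features were higher and 20.7% lower. The calls depended on the replicate 2 libraries: without them 0 serpins passed and 3 of 7301 features passed in all, although the 6 differences kept their sign in both sets of replicates.

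The gene cluster at 43A held the largest of these differences. Spn43Ad ranged from 8.14 to 23.5 TPM (median 19.1 TPM) on 5% SY and from 6.40 to 22.3 TPM (median 13.1 TPM) on 15% SY. The ranges nearly coincided, and the low end on 5% SY was a single library, that of replicate 1 at ZT2. The difference was 0.37 (standard error 0.11, limma adjusted p = 0.0204), higher in 18 of 24 pairs of libraries. Its abundant neighbour Spn43Ab had a median of 702 TPM (351 to 915 TPM) against 556 TPM (333 to 752 TPM), a difference of 0.28 (standard error 0.09, limma adjusted p = 0.0256), higher in 21 of 24 pairs. With no filter on low values, the limma adjusted p of Spn43Ab was 0.0549. The third neighbour, nec, had a difference of 0.22 that did not pass (limma adjusted p = 0.141).

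Spn47C, the serpin that moved most with temperature, was again among those called, with a median of 14.6 TPM (9.78 to 23.7 TPM) on 5% SY against 12.0 TPM on 15% SY and a difference of 0.33 (standard error 0.10, limma adjusted p = 0.0174). Spn77Ba, of tracheal melanization, had a median of 54.4 TPM (31.6 to 72.7 TPM) against 46.2 TPM and a difference of 0.27 (standard error 0.07, limma adjusted p = 0.0118), higher in 21 of 24 pairs of libraries. The pair at 42D moved by like amounts. The furin inhibitor Spn42Da had a median of 101 TPM (59.8 to 113 TPM) on 5% SY against 85.9 TPM, a difference of 0.22 (standard error 0.07, limma adjusted p = 0.019), and Spn42Dd had 89.1 TPM (52.5 to 115 TPM) against 78.5 TPM, a difference of 0.21 (standard error 0.06, limma adjusted p = 0.0157). For both, the ranges of the 2 diets overlapped and 22 of the 24 libraries on 5% SY were above the median on 15% SY.

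Spn27A did not pass for diet. Its medians were 66.6 TPM on 5% SY and 63.4 TPM on 15% SY, with a difference of 0.00 and a 95% interval from -0.13 to 0.14. Spn55B, Spn88Eb, Spn28Dc and Spn88Ea had differences of -0.03, 0.09, 0.15 and -0.22 and did not pass. Of the 14 tested partner genes, MP1 (0.29) and psh (0.28) were higher on 5% SY, and Tl (-0.43), Fur1 (-0.32) and Fur2 (-0.31) were lower. Furin is the enzyme that Spn42Da inhibits. The Toll effectors BomS2 (0.83), BomS3 (0.63) and BomBc2 (0.47) were higher and 0 of the 9 were lower. Of 6 hemocyte markers tested, Hml (0.37) and NimC1 (0.24) were higher, with summed levels of 125 to 265 TPM on 5% SY. Without the replicate 2 libraries, 0 genes of these 3 lists passed. Of 8 fat body markers tested, 1 was higher on 5% SY and 1 lower, and in the replicate 2 libraries alone 1 was higher and 7 lower. Of 6 ovary markers tested, 4 were lower on 5% SY (median difference -1.85), and of 4 muscle markers 2 were higher. Without the replicate 2 libraries 0 ovary or muscle markers passed. The part of fat body cells, hemocytes, ovary and muscle in these diet differences was not tested.

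In the clock mutant the serpins moved in both directions. Of the 12 tested, 6 were higher in Clk-Jrk than in wild type and 2 were lower, against 46.1% of the 7093 features tested called, 9.87% higher and 36.3% lower. The median difference was 0.19 over the 12 serpins and -0.22 over all features. This comparison depended on scaling, since the median of ratios moved the median of all features to 0.02 and the share of higher calls among all calls from 21.4% to 59.5%. Relative to that scaling 8 of 12 serpins were higher and 0 lower, where 24.3% of all features were higher and 16.5% lower: Spn27A (0.26) and Spn43Ab (0.28) joined the 6, and the lower calls of Spn55B and Spn88Ea were lost. Without the replicate 1 libraries 4 of 12 serpins passed, all of them higher (Spn47C, Spn88Eb, Spn42Da and Spn42Dd). Of all features 40.2% were called in that fit, 7.66% higher and 32.5% lower. Without the replicate 2 libraries 2 of 12 passed (Spn42Da and Spn55B), where 10.5% of all features did.

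Spn42Da separated the genotypes most cleanly. Its level was 103 to 129 TPM (median 115 TPM) in the 12 Clk-Jrk libraries and 67.8 to 102.6 TPM (median 84.9 TPM) in the 12 wild-type libraries. These ranges did not overlap, while those of the other serpins tested did in all 3 comparisons. The share of all features with ranges apart is not given here, so this is a description only. The difference was 0.42 (standard error 0.07, limma adjusted p = 0.000206), and it passed in each set of replicates and under the other scaling (0.67). Spn42Dd, from the same cluster, had 77.8 to 145 TPM (median 101 TPM) in Clk-Jrk against 50.5 to 101 TPM (median 80.5 TPM), a difference of 0.42 (standard error 0.11, limma adjusted p = 0.00515).

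Spn47C and Spn88Eb had the largest differences. Spn47C ranged from 16.1 to 33.9 TPM (median 21.8 TPM) in Clk-Jrk and from 8.14 to 19.95 TPM (median 11.3 TPM) in wild type, a difference of 0.82 (standard error 0.15, limma adjusted p = 0.000403). Its size was uneven between replicates, at 1.33 in the replicate 2 libraries and 0.30 in the replicate 1 libraries, where it did not pass. Spn88Eb ranged from 136 to 218 TPM (median 167 TPM) against 67.3 to 141 TPM (median 108 TPM), with 10 of the 12 mutant libraries above each wild-type library. Its difference was 0.62 (standard error 0.10, limma adjusted p = 0.000131), higher in 12 of 12 pairs of libraries.

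Smaller rises were those of Spn43Ad (0.34, standard error 0.12, limma adjusted p = 0.026) and nec (0.30, standard error 0.10, limma adjusted p = 0.0242). Spn43Ad had 13.03 to 19.9 TPM (median 16.1 TPM) in Clk-Jrk against 7.74 to 19.2 TPM (median 12.7 TPM), and without the wild-type library at ZT2 of replicate 1 it missed the threshold (limma adjusted p = 0.0516). The Persephone inhibitor nec had 160 to 263 TPM (median 202 TPM) against 99.1 to 209 TPM (median 168 TPM). Neither passed in either set of replicates alone.

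The 2 serpins that were lower in Clk-Jrk were Spn88Ea and Spn55B. Spn88Ea, the negative regulator of Toll, ranged from 13.6 to 43.6 TPM (median 21.9 TPM) in Clk-Jrk and from 19.0 to 79.7 TPM (median 33.5 TPM) in wild type, with a difference of -0.54 (standard error 0.19, limma adjusted p = 0.0252) and lower in 10 of 12 pairs of libraries. Spn55B had 8.03 to 14.5 TPM (median 11.2 TPM) against 10.9 to 25.3 TPM (median 13.3 TPM), a difference of -0.35 (standard error 0.10, limma adjusted p = 0.00868). Both ranges overlapped, and under the median of ratios the differences were -0.30 (limma adjusted p = 0.183) for Spn88Ea and -0.11 (limma adjusted p = 0.44) for Spn55B. So Spn88Ea and Spn88Eb, which are neighbours on 3R, differed in direction on the scale of the deposited values. Spn27A, Spn43Ab, Spn28Dc and Spn77Ba had differences between 0.01 and 0.07 and did not pass on that scale.

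Among the partner genes, PPO1 (0.77), Hayan (0.58), modSP (0.50), grass (0.42), SPE (0.34) and Sp7 (0.24) were higher in Clk-Jrk and Tl (-0.64), Fur1 (-0.63) and spz (-0.31) were lower, which is 6 and 3 of 14. Under the median of ratios 8 were higher and 2 lower, and Tl (-0.41) and Fur1 (-0.41) were still lower. Of the 9 Toll effectors, BomBc2 (0.56) was higher and BomS5 (-0.96) lower, the latter not under the median of ratios. Of 7 hemocyte markers tested, 4 were higher (PPO1, NimC1, Hml and eater), with summed levels of 118 to 315 TPM in Clk-Jrk, while the 4 muscle and 3 Malpighian tubule markers tested were lower. Under the median of ratios 0 of the 4 muscle markers were lower. Of 8 fat body markers tested, 4 were higher and 1 lower, and under the median of ratios 4 were higher and 0 lower. The part of these cells in the serpin differences was not tested.

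The 3 comparisons share the wild-type libraries on 15% SY at 25°C, so their differences are given side by side and not counted as separate evidence. Spn47C was the one serpin called in all 3, at 1.00 for 18°C, 0.33 for 5% SY and 0.82 for Clk-Jrk. Spn88Eb was called for temperature (0.97) and genotype (0.62) and not for diet (0.09). Spn42Da, Spn42Dd and Spn43Ad were called for diet (0.22, 0.21 and 0.37) and genotype (0.42, 0.42 and 0.34) and not for temperature (0.07, 0.12 and -0.24). Spn77Ba was called for temperature (0.68) and diet (0.27), and Spn55B for temperature (0.40) and, in the other direction, genotype (-0.35). The melanization regulators Spn27A and Spn28Dc were called for temperature alone, Spn43Ab for diet alone, and nec and Spn88Ea for genotype alone. All of these calls come from the fit without a term for replicate number. With that term nec, Spn88Ea and, lower, Spn43Ad were also called for temperature (limma adjusted p = 0.00653, 0.0175 and 0.0115). So was nec for diet (limma adjusted p = 0.0145).

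In each group 3 to 5 serpins passed an unadjusted test for a 24 h rhythm, and at most 1 passed after adjustment. Harmonic regression fitted a 24 h cosine to the TPM values of each group, and its F-test was read at the study's threshold of p = 0.1, without adjustment. At 18°C, 5 of 13 serpins passed, where 30.5% of all features did. At 25°C on 15% SY 4 of 12 passed (19.0% of all features), on 5% SY 4 of 12 (10.1%), and in Clk-Jrk 3 of 12 (18.0%). After Benjamini-Hochberg adjustment over all features of a group, the one serpin left at an adjusted p below 0.1 was Spn27A at 25°C on 15% SY, where 0.782% of all features were left. At 18°C 0 of 13 serpins were left (9.92% of all features), on 5% SY 0 of 12 (0.511%) and in Clk-Jrk 0 of 12 (0.0155%).

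Spn27A, the regulator of prophenoloxidase activation, was highest in the dark phase at 25°C. Its mean rose from 51.1 TPM at ZT6 (44.0 and 58.2 TPM in the replicates) to 76.7 TPM at ZT18 (76.6 and 76.7 TPM). The fitted peak was at ZT16.1 (standard error 0.74 h) with an amplitude of 15.9% of the mean (p = 0.00018, adjusted p = 0.0428). The adjusted p rose to 0.108 without the library at ZT4 that stood apart and to 0.248 under the median of ratios, where the p was 0.00294. On 5% SY the peak was at ZT16.1 as well (standard error 1.02 h, amplitude 17.4%, p = 0.0046). The p stood at 0.0112 and 0.00243 in the replicate 1 and replicate 2 libraries alone. The lowest 5% SY value (34.3 TPM) was that of the replicate 1 library at ZT2, which is absent from the replicate 2 fit. Under the median of ratios the p on 5% SY was 0.226. At 18°C (p = 0.456) and in Clk-Jrk (p = 0.135) Spn27A did not pass, although the replicate 2 libraries at 18°C alone gave a peak at ZT18.1 (p = 0.000789), and its rhythm at 18°C and in Clk-Jrk was not shown to differ from that at 25°C (limma adjusted p = 0.577 and 0.746 for the difference in rhythm).

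Spn55B was the one serpin that passed in all 4 groups. Its fitted peaks lay at ZT12.4 at 18°C (p = 0.0391), ZT14.7 at 25°C (p = 0.0247), ZT14.9 on 5% SY (p = 0.00813) and ZT13.5 in Clk-Jrk (p = 0.0227), with standard errors from 1.09 to 1.39 h. The amplitude was 29.97% of the mean at 18°C, 18.7% at 25°C, 21.2% on 5% SY and 18.3% in Clk-Jrk. Its values were low and uneven, and at ZT14 and 18°C, its highest mean, the replicates read 45.7 and 18.7 TPM. The lowest 5% SY value of Spn55B (8.03 TPM) was that of the replicate 1 library at ZT2, and the replicate 2 libraries alone gave p = 0.0235 there. In none of the 4 groups did Spn55B pass in both sets of replicates alone, and under the median of ratios it did not pass in Clk-Jrk (p = 0.419).

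Spn77Ba passed at 25°C on both diets, with peaks at ZT16.4 (p = 0.06) and ZT14.8 (p = 0.0871). Spn28Dc passed at 18°C at ZT9.69 (p = 0.041) and on 5% SY at ZT12.7 (p = 0.0406). Spn43Ad passed at 18°C at ZT10.0 (p = 0.0478, and p = 0.0052 and 0.0101 in the separate sets of replicates). Spn88Eb passed at 18°C at ZT15.3 (p = 0.0631) and in Clk-Jrk at ZT4.43 (p = 0.0501). Of the remaining serpins, nec, Spn42Da, Spn43Ab, Spn47C and Spn88Ea passed in none of the 4 groups and Spn31A did not pass at 18°C, the only group in which it was fitted, although vri and tim, the clock genes measured in the same libraries, had amplitudes of 63.5% to 89.6% of the mean in the wild-type groups.

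**Figure D4:**
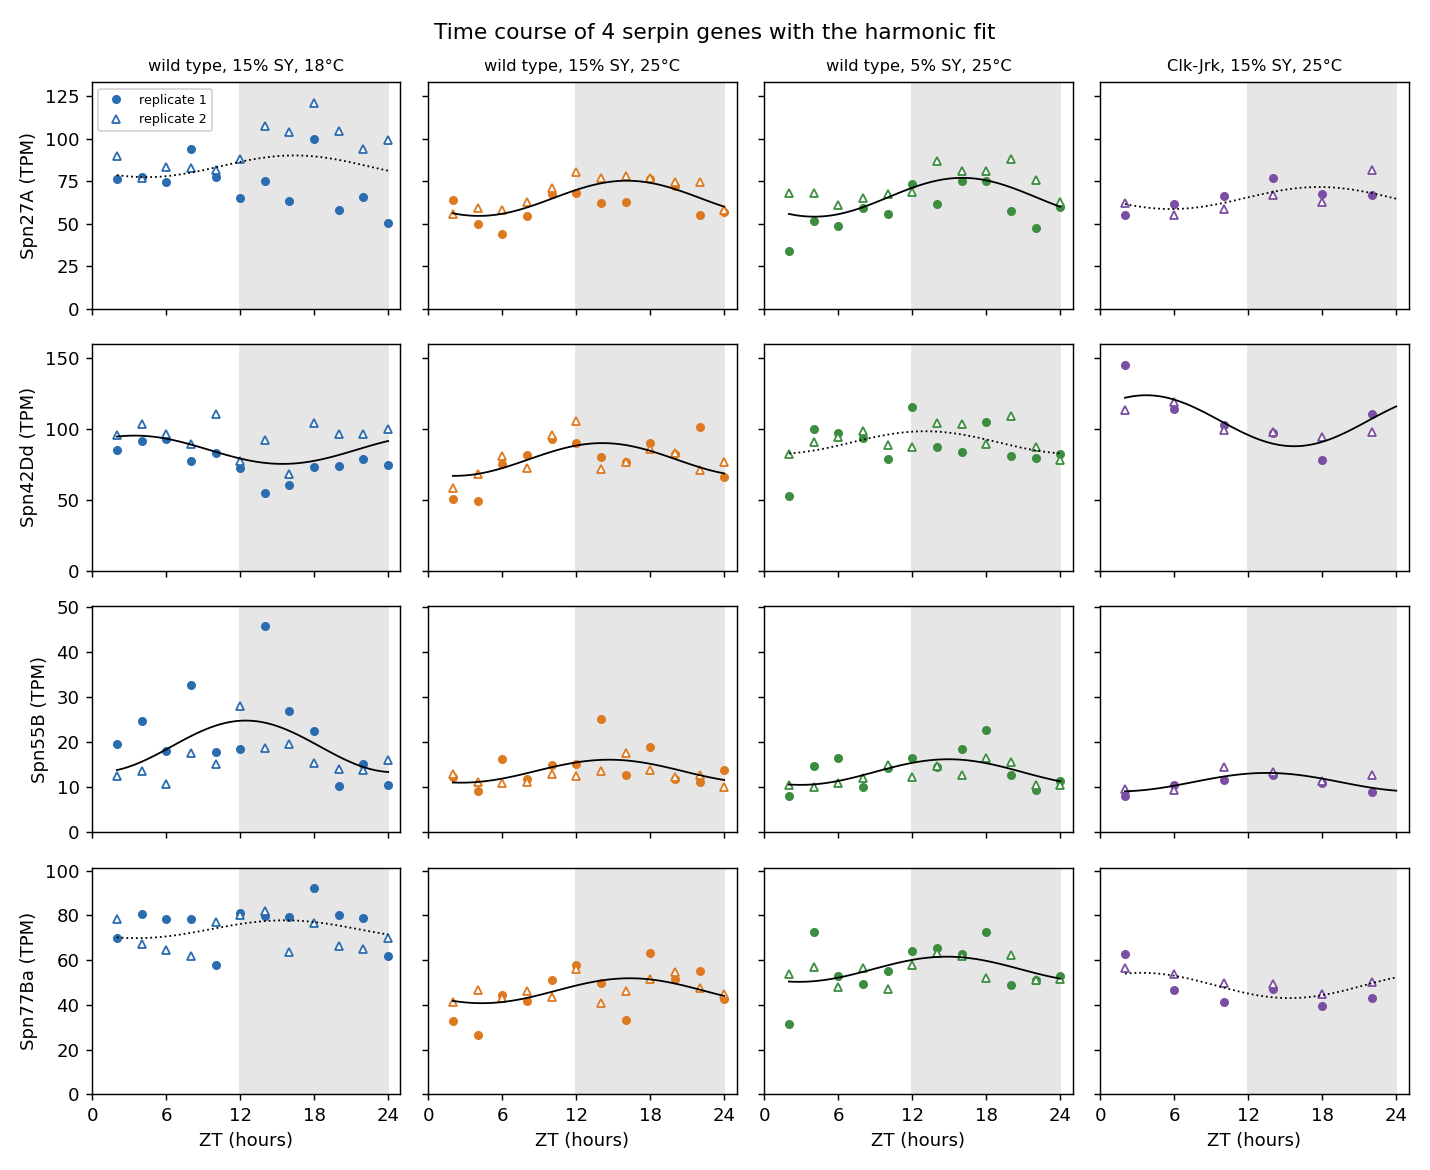
Time course of Spn27A, Spn42Dd, Spn55B and Spn77Ba in the 4 groups, in TPM against ZT in hours, with shading for the dark phase. Circles and triangles are the replicates, and the line is the harmonic fit, solid where p was below 0.1 and dotted where it was not. Spn27A peaked at ZT16.1 at 25°C, and the fitted peak of Spn42Dd lay at ZT3.45 at 18°C and at ZT14.1 at 25°C.

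Spn42Dd, the Toll regulator of the 42D cluster, had fitted peaks in the light phase in some groups and in the dark phase in others. By the mean of the replicates, at 25°C on 15% SY it was lowest at ZT2 (50.5 and 58.5 TPM) and highest at ZT12 (90.0 and 105 TPM), with a fitted peak at ZT14.1 (standard error 1.14 h, p = 0.0111). At 18°C it was highest at ZT4 (91.5 and 104 TPM) and lowest at ZT16 (60.0 and 67.9 TPM), with a fitted peak at ZT3.45 (standard error 1.45 h, p = 0.0504). These peaks were 10.7 h apart (standard error 1.85 h). In Clk-Jrk it was highest at ZT2 (113 and 145 TPM) and lowest at ZT18 (77.8 and 93.7 TPM), with a peak at ZT3.72 (p = 0.0102), 10.4 h from wild type (standard error 1.49 h). On 5% SY the fitted peak was at ZT13.04 and did not pass (p = 0.106).

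The difference in rhythm was tested with limma on log2(TPM + 1) as the interaction of group with the cosine and sine. Between 18°C and 25°C, 1 of 13 serpins passed, which was Spn42Dd (limma p = 0.000343, adjusted p = 0.0431), where 1.05% of all features passed. The call was lost under the median of ratios (limma adjusted p = 0.0806), without the wild-type library at ZT4 that stood apart (limma adjusted p = 0.0993), without the replicate 1 libraries (limma adjusted p = 0.431) and without the replicate 2 libraries (limma adjusted p = 0.204). In the replicate 1 and replicate 2 libraries alone the fitted peaks were at ZT4.04 (p = 0.00328) and ZT2.39 (p = 0.333) at 18°C, and at ZT15.1 (p = 0.112) and ZT12.9 (p = 0.117) at 25°C, so 3 of these 4 fits did not pass.

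Between the diets, 0 of the 12 serpins had a limma adjusted p below 0.05 for a difference in rhythm, as had 0 of all features, while 0 of the 12 and 1.41% of all features had an unadjusted limma p below 0.05. Between Clk-Jrk and wild type 0 of 12 passed, where 0.0564% of all features did. At an unadjusted limma p below 0.05, 3 of the 12 did (Spn42Dd, Spn77Ba and Spn88Eb, with limma adjusted p = 0.34, 0.453 and 0.519), where 9.15% of all features did. Fitted to all wild-type libraries of 25°C and 15% SY, the peaks of these 3 lay at ZT14.1, ZT16.4 and ZT14.3, and in Clk-Jrk at ZT3.72, ZT3.35 and ZT4.43, of which Spn77Ba in Clk-Jrk (p = 0.1003) and Spn88Eb in wild type (p = 0.157) did not pass.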

How the data were processed

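The deposited table held TPM values, which the authors computed with RSEM 1.3.1 from poly(A) reads aligned with STAR 2.7.10a to the BDGP6 assembly, after FastQC and adapter trimming, without use of strand or removal of duplicates. TPM is relative to each library's total, so a few very abundant transcripts can move all other values. Depth per library is unknown. Sampling times were taken from the sample titles (ZT2 to ZT24).

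Means were compared with limma 3.58.1 (R 4.3.3) on log2(TPM + 1) with group and time point as terms, for features with a median above 5 TPM in either group, with Benjamini-Hochberg adjustment over all features tested and a threshold of 0.05. Fold changes on this scale understate those of low genes. Rhythms were fitted by harmonic regression on TPM (period 24 h, p below 0.1), and differences in rhythm by a limma F-test. The scripts were tested on simulated data. Alternatives were a pseudocount of 0.1, other filters, median of ratios scaling, a replicate block, other rhythm thresholds and leaving out each set of replicates. A light to dark step was also added to the rhythm fit, and the cosine was then tested beyond that step. Leaving out the wild-type library at ZT4 or ZT2 of replicate 1 was chosen after seeing the data.

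All serpins above 5 TPM in median in any group were named with values, and the others by range. Other named genes came from lists of protease partners, Toll effectors, clock genes and cell type markers. The members and lists were chosen with earlier results of these data known. Positions are from Ensembl release 115 of BDGP6, later than the authors' annotation. No sequences are shown.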

Additional observations from a re-analysis of the deposited data

Results flagged for a closer look

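The rhythm of Spn42Dd, a serpin that regulates the Toll pathway, differed between 18°C and 25°C by a test of the difference itself, a limma F-test that let the 24 h curve differ between the temperatures (adjusted p = 0.0431). The fitted peaks were at ZT3.45 at 18°C and ZT14.1 at 25°C, and the call was lost when either set of replicates was left out.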

How the results depend on the processing

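Over 85 alternatives for the counts of serpins, 63 gave a count within 1.5 times the reported one and on the same side of the threshold. For the 37 differences in mean level, 333 alternatives left 301 with the same call, 21 lost and 11 gained the call, and none of those called reversed. The direction changed in 10 of the 301, where the serpin was called under neither setting. The 1 serpin with a rhythm difference between 18°C and 25°C became 0 under the median of ratios, 0 without the wild-type library of replicate 1 at ZT4, and 0 without either set of replicates. For diet, 0 serpins were called without the replicate 2 libraries (0.0411% of all features) and 7 without the replicate 1 libraries (56.3%). For Clk-Jrk these counts were 2 (10.5%) and 4 (40.2%). At 18°C, 3 serpins passed the rhythm test at a threshold of 0.05, where 22% of all features did. There, 0 passed at an adjusted p below 0.1 (9.92% of all features) and 2 under the median of ratios (32.1%). With a light to dark step beside the cosine 2 passed (26.8%). Without the replicate 1 libraries 3 passed (25.7%), and without the replicate 2 libraries 7 did (32.6%). At 25°C on 15% SY there was 1 at an adjusted p below 0.1 (0.782%). There were 2 without the replicate 1 libraries (11.6%) and 2 without the replicate 2 libraries (10.6%). On 5% SY there were 0 at an adjusted p below 0.1 (0.511%) and 1 under the median of ratios (13%). There were 2 without the replicate 1 libraries (15.7%) and 2 without the replicate 2 libraries (12.7%). Clk-Jrk gave 0 at an adjusted p below 0.1 (0.0155%), 1 under the median of ratios (16%) and 5 with the light to dark step (23%). It gave 2 without the replicate 1 libraries (7.25%) and 3 without the replicate 2 libraries (19.5%). Where no value above shows the cause, the cause was not tested.

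Replicate numbers were not taken to pair the samples, since not every correlation of same-numbered libraries at a time point was above 0.1: 10 of 12 were for temperature (mean 0.282), 11 of 12 for diet (0.268) and 1 of 6 for Clk-Jrk (-0.17). With the replicate block the serpins called were 10 for temperature (58.7% of all features), 7 for diet (42.2%) and 8 for Clk-Jrk (47.0%). Those gained were nec (limma adjusted p = 0.00653), Spn88Ea (0.0175) and, lower, Spn43Ad (0.0115) for temperature and nec (0.0145) for diet. Serpins passing the unadjusted rhythm test were 7 at 18°C (42.2% of all features), 5 at 25°C (26.5%), 6 on 5% SY (15.0%) and 4 in Clk-Jrk (17.5%). Those gained were Spn42Da and Spn43Ab at 18°C, Spn43Ad at 25°C, Spn43Ad and Spn43Ab on 5% SY and Spn77Ba in Clk-Jrk. Serpins with a rhythm difference were 1, 0 and 0 for temperature, diet and Clk-Jrk. Unknown depth limits the low serpins: a value near 0 cannot be told from a gene sampled by few reads.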

Other observations

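The 2 sets of replicates held unlike serpin levels in the wild-type groups, with directions that differed by gene. The Persephone inhibitor nec had medians of 160 TPM in the replicate 1 and 251 TPM in the replicate 2 libraries at 18°C, 142 and 198 TPM at 25°C, and 157 and 233 TPM on 5% SY. The furin inhibitor Spn42Da went the same way, with 74.1 and 103.5 TPM at 18°C and 72.7 and 97.5 TPM at 25°C. Spn88Ea went the other way, with 67.1 and 30.2 TPM at 18°C, 40.5 and 22.3 TPM at 25°C, and 29.6 and 21.1 TPM on 5% SY. In Clk-Jrk the medians were 199 and 202 TPM for nec and 21.9 and 21.0 TPM for Spn88Ea, but 18.4 and 26.0 TPM for Spn47C, 583 and 494 TPM for Spn43Ab and 145 and 171 TPM for Spn88Eb.

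The library with the highest summed level of 9 Toll effector genes in each group was looked at for its serpins. At 25°C on 15% SY it was replicate 2 at ZT12, with 8962 TPM against a group median of 3570 TPM. There nec (258 TPM), Spn27A (80.5 TPM), Spn42Dd (105 TPM) and Spn43Ab (752 TPM) were each at their highest of 24 libraries, while Spn88Ea ranked 21. At 18°C, replicate 2 at ZT24 had 17837 TPM against 5131 TPM, where nec (317 TPM) ranked 2 and Spn31A 22 of 24. On 5% SY, replicate 2 at ZT14 had 9830 TPM against 4957 TPM, where Spn28Dc ranked 1, Spn27A 2, nec 5 and Spn31A 20 of 24. In Clk-Jrk, replicate 2 at ZT6 had 10395 TPM against 2727 TPM, where Spn88Eb was at its highest (218 TPM), nec ranked 4, and Spn27A (55.0 TPM) and Spn88Ea (13.6 TPM) were at their lowest of 12 libraries. These are values of single libraries, with no test.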
